A study of Homo sapiens with 18 samples.

Results

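The 9 genes described here encode enzymes that make and break down heme, namely ALAS1, ALAS2, ALAD, UROS, UROD, CPOX, PPOX and FECH of the synthesis pathway and HMOX1 of breakdown. They were chosen by gene symbol from the 28395 genes of the RNA-seq tables, and all 9 were found. Of 85549 accessible regions found by ATAC-seq, the 24 that lay within 5 kb of these genes were taken with them. The cells were K562, a human leukemia cell line with erythroid features, and each of the 3 lines was measured with 3 RNA-seq and 3 ATAC-seq libraries. The lines carried the empty vector (V-K562), wtBASP1 (B-K562) or BASP1-G2A (G-K562), a mutant that lacks the N-terminal glycine that is myristoylated. All 3 lines were stably transfected and kept as pools selected with G-418, so each construct is represented by a single pool and a difference between pools that is not due to the construct cannot be told apart from its effect. BASP1 is a transcriptional corepressor that works with WT1, and the comparison of the 2 BASP1 lines asks what the lipid modification contributes.

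Heme is an iron-containing ring that carries oxygen in hemoglobin and electrons in cytochromes. Its synthesis starts in the mitochondrion, where an ALA synthase joins glycine to succinyl-CoA, continues in the cytosol and returns to the mitochondrion, where FECH inserts the iron. Cells that make hemoglobin use the erythroid synthase ALAS2, from the X chromosome, beside the ubiquitous ALAS1, and in the erythroid lineage many genes of the pathway are known targets of GATA1. HMOX1, an inducible heme oxygenase, opens the ring and is repressed by BACH1 until heme or oxidative stress is high.

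The letters that GATA factors recognize were searched in the regions that changed most, since these carry much of the accessibility result. The motif was AGATAA or TGATAA on either strand, in the 300 bases about a region's summit, and capitals mark it, written TTATCT where AGATAA is on the other strand. The sequences below are from GRCh38, plus strand, cut from regions in introns of ALAS2 (chrX:55015070-55015194), UROS (chr10:125816685-125816720), CPOX (chr3:98583847-98583923) and FECH (chr18:57583452-57583518).
ALAS2 intron 8: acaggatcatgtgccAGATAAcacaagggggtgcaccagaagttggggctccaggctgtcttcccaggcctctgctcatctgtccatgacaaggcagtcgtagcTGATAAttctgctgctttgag
UROS intron 1: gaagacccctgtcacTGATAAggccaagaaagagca
CPOX intron 5: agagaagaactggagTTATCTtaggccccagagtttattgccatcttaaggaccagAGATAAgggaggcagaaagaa
FECH intron 1: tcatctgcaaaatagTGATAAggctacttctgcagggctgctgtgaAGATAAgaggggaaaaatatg

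Of 35116 promoters in the RefSeq table (GRCh38.p14), 14.56% hold the GATA letters in the 250 bases before the start. Of the 9 entries for the 7 enzymes in that table, 3 hold them, namely those of ALAS2 and CPOX and 1 of the 2 of PPOX, and those of ALAS1, ALAD, UROD and FECH do not. The promoters of ALAS2 (chrX:55030978-55031227) and CPOX (chr3:98593612-98593861), both on the minus strand and written here in the direction of the gene, are shown because they hold them once and 2 times and because both genes are described in detail below. The ALAS2 promoter also holds TGAGTCA, the letters of NF-E2, AP-1 and MAF-containing dimers, which 4.2% of the promoters hold.
ALAS2 promoter: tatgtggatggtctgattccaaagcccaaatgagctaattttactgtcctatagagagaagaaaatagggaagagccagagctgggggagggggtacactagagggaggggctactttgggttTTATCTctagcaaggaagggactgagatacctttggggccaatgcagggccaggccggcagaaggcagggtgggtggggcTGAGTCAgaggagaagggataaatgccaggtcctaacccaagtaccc
CPOX promoter: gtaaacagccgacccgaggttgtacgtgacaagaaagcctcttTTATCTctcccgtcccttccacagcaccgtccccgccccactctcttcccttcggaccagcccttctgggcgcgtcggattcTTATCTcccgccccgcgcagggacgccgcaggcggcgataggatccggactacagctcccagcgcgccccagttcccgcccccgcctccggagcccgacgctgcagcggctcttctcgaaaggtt

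RNA-seq values are gene counts scaled by the authors with DESeq2 size factors and given as whole numbers. The V-K562 and G-K562 values are given as deposited in their shared table, and those of B-K562 are multiplied by 1.017 to bring them from the other table to the same scale. Fold changes are on the scale of log2(value + 1) from limma-trend, a linear model fitted across all genes, and a gene is called changed where the p-value, after Benjamini-Hochberg adjustment over all genes tested, does not exceed 0.05. A gene was tested if 3 or more libraries reached 10, as 8 of the 9 enzymes did. HMOX1 did not, and it was not tested.

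Most of the tested synthesis enzymes were called higher in B-K562 and lower in G-K562, each relative to V-K562 cells. In B-K562 cells this includes small rises of ALAS1 (1.10-fold) and PPOX (1.12-fold), neither called with trimmed-mean rescaling. In B-K562 cells 6 of the 8 tested enzymes rose (ALAS1, ALAS2, UROS, UROD, PPOX and FECH) and 2 fell (ALAD and CPOX), with a median log2 fold change of 0.29 against 0.01 over all 14958 genes tested. Among all genes tested 38.6% rose and 37.2% fell, so most genes passed this threshold. None of the enzymes reached a 2-fold change, which 6.46% of all genes did upward and 14.1% downward. In G-K562 cells 6 of the 8 fell (ALAS1, ALAS2, UROD, CPOX, PPOX and FECH) and ALAD rose, with a median of -0.89 against 0.00 over all 15271 genes. The backgrounds were 33.3% of genes lower and 33.5% higher. The fall was at least 2-fold for UROD, CPOX, PPOX and FECH, 4 of 8 against 10.3% of all genes, and no enzyme rose 2-fold, against 8.81%. The pools with wtBASP1 and BASP1-G2A were also compared directly, in a fit of all 9 libraries. In G-K562 relative to B-K562 cells 7 of the 8 enzymes were lower and ALAD was higher, with a median log2 difference of -1.31 against -0.02 over 15521 genes, of which 40.5% were lower and 38.1% higher. For ALAS2, UROD, CPOX, PPOX and FECH the difference was at least 2-fold, 5 of 8 against 12.5% of all genes, and none was at least 2-fold higher, against 17.4%. The comparisons of B-K562 and G-K562 with V-K562 share the V-K562 libraries and are not independent.

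**Figure D1:**
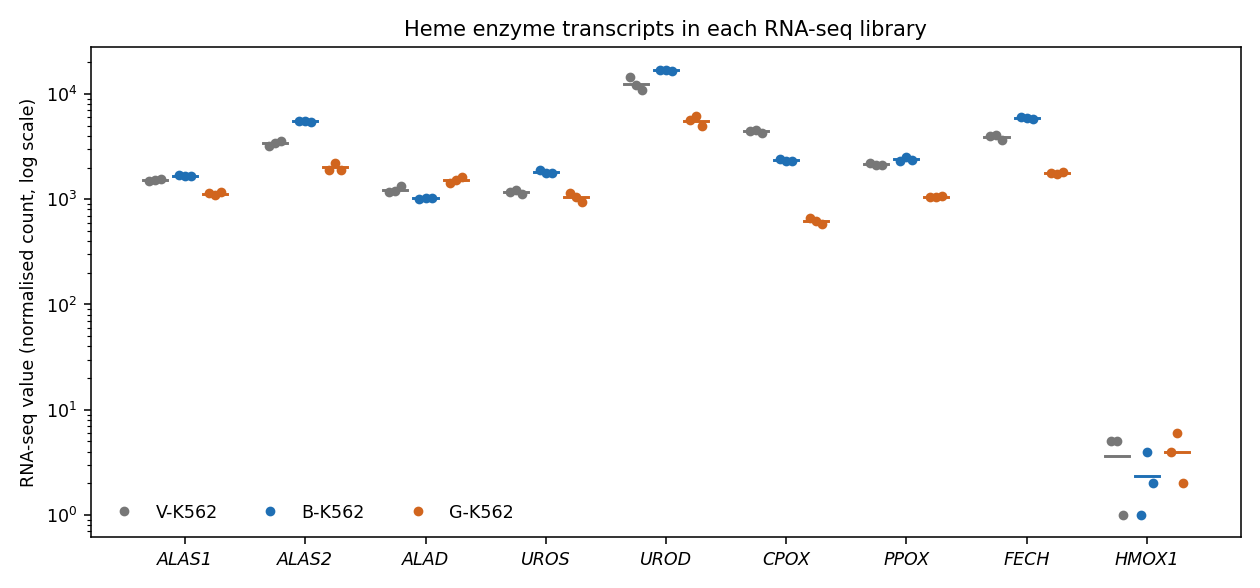
RNA-seq value (normalised count, log axis) of each of the 9 enzymes in each library, with 3 points per line (grey V-K562, blue B-K562, orange G-K562) and a bar at the mean. CPOX had the widest range, from 580 in a G-K562 library to 4550 in a V-K562 library, and HMOX1 was at 6 or less in all 9 libraries.

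The ALA synthases carry out the rate-limiting step. ALAS2 was at 3226, 3426 and 3552 in the V-K562 libraries, 5475, 5519 and 5418 in B-K562 and 1913, 2215 and 1885 in G-K562. The 3 lines did not overlap, with B-K562 highest and G-K562 lowest. ALAS2 was 1.61-fold higher in B-K562 than V-K562 cells (log2 fold change 0.69, SE 0.05, adjusted p = 1.59e-08, limma-trend) and 1.70-fold lower in G-K562 cells (-0.77, SE 0.07, adjusted p = 2.65e-06). In G-K562 it was 2.74-fold below B-K562 (-1.45, SE 0.06, adjusted p = 4.00e-11, limma-trend). ALAS1, the synthase of all tissues, had values of 1483, 1537 and 1551 in V-K562, 1695, 1672 and 1648 in B-K562 and 1140, 1095 and 1160 in G-K562 libraries. These followed the same order with smaller steps. The rise in B-K562 cells was 1.10-fold (log2 0.13, SE 0.05, adjusted p = 0.0236, limma-trend) and is not called with the values rescaled by a trimmed mean (0.09, adjusted p = 0.110) or by their total (0.10, adjusted p = 0.0595), or without any 1 of the B-K562 libraries (adjusted p from 0.0519 to 0.0826). The fall in G-K562 cells was 1.35-fold (log2 -0.43, SE 0.06, adjusted p = 6.60e-05, limma-trend).

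Per kb of merged exon length, the scale on which genes can be compared, ALAS2 made up 72.0% ± 0.518 (SD, n = 3 libraries) of the summed ALAS1 and ALAS2 level in V-K562 cells. This share was 79.1% ± 0.194 in B-K562 and 67.1% ± 2.58 in G-K562 cells (SD, n = 3 each). No library of one line overlapped another line in this share, since the highest G-K562 library was at 70.0% and the lowest V-K562 library at 71.5%. ALAS2 was therefore the more abundant synthase transcript in every library, including those of G-K562.

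The next enzymes in the cytosol were not changed in 1 direction. ALAD, which joins a pair of ALA molecules into porphobilinogen, was at 1165, 1205 and 1327 in V-K562, 1007, 1027 and 1023 in B-K562 and 1439, 1513 and 1641 in G-K562 libraries. It was the only tested enzyme that was lowest in B-K562 and highest in G-K562 cells, and the lines did not overlap. On the log2 scale it changed by -0.27 in B-K562 cells (SE 0.06, adjusted p = 8.81e-04, limma-trend) and 0.31 in G-K562 cells (SE 0.07, adjusted p = 0.00277). UROS, which closes the tetrapyrrole ring, was at 1158, 1217 and 1120 in V-K562 and rose to 1904, 1783 and 1789 in B-K562 libraries, a 1.57-fold increase (log2 0.65, SE 0.05, adjusted p = 1.34e-07, limma-trend). Its values in the G-K562 libraries, of 1153, 1039 and 938, overlapped those of V-K562. That difference, a log2 fold change of -0.16 (95% confidence interval -0.34 to 0.01, adjusted p = 0.0949, limma-trend), was not called, and without G-K562 replicate 1 it was -0.24 and called (adjusted p = 0.0295).

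UROD, which removes carboxyl groups from the ring, had the highest values of the pathway. They were 14399, 12103 and 11008 in V-K562, 17008, 16779 and 16354 in B-K562 and 5629, 6104 and 4972 in G-K562 libraries. The V-K562 libraries spread more than those of the other lines, yet no values overlapped between lines. UROD rose 1.34-fold in B-K562 cells (log2 0.43, SE 0.08, adjusted p = 1.82e-04, limma-trend) and fell 2.24-fold in G-K562 cells (log2 -1.16, SE 0.10, adjusted p = 1.08e-06). The 106 tested genes within 5 Mb of UROD on chromosome 1 had median log2 changes of -0.04 in B-K562 and -0.43 in G-K562 cells, and the part that this neighbourhood had in the fall of UROD was not tested.

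The last steps are mitochondrial, and all of their 3 enzymes fell at least 2-fold in G-K562 cells, as UROD did. CPOX, which makes protoporphyrinogen from coproporphyrinogen, was at 4423, 4550 and 4259 in V-K562 libraries. It was at 2411, 2323 and 2287 in B-K562 and at 665, 615 and 580 in G-K562 libraries. CPOX was the only tested enzyme below V-K562 in both BASP1 lines, 1.88-fold in B-K562 cells (log2 -0.91, SE 0.05, adjusted p = 1.15e-09, limma-trend) and 7.11-fold in G-K562 cells (log2 -2.83, SE 0.07, adjusted p = 8.80e-11). In G-K562 it was a further 3.78-fold below B-K562 (log2 -1.92, SE 0.06, adjusted p = 1.30e-12, limma-trend). Around CPOX on chromosome 3 the 33 tested genes within 5 Mb had medians of -0.39 in B-K562 and -0.04 in G-K562 cells. The part that this neighbourhood had in the changes of CPOX was not tested.

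PPOX, which oxidizes protoporphyrinogen, was at 2203, 2114 and 2103 in V-K562, 2299, 2528 and 2356 in B-K562 and 1055, 1054 and 1064 in G-K562 libraries. The G-K562 libraries lay far below the rest, 2.02-fold under V-K562 (log2 -1.02, SE 0.06, adjusted p = 4.44e-08, limma-trend). The rise in B-K562 cells was small, 1.12-fold (log2 0.16, SE 0.05, adjusted p = 0.0117), and is not called without B-K562 replicate 2 (0.12, adjusted p = 0.0903, limma-trend) or with trimmed-mean rescaling (0.12, adjusted p = 0.0511). FECH, the ferrochelatase, was at 3980, 4109 and 3678 in V-K562, 6015, 5955 and 5752 in B-K562 and 1771, 1718 and 1827 in G-K562 libraries. The lines were widely separated. FECH rose 1.51-fold in B-K562 cells (log2 0.59, SE 0.05, adjusted p = 1.53e-07, limma-trend) and fell 2.21-fold in G-K562 cells (log2 -1.14, SE 0.06, adjusted p = 2.85e-08), so that G-K562 was 3.33-fold below B-K562 (log2 -1.74, SE 0.05, adjusted p = 1.18e-12).

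The breakdown enzyme had very low values. HMOX1 was at 5, 5 and 1 in V-K562, 1, 4 and 2 in B-K562 and 4, 6 and 2 in G-K562 libraries. All values were under the minimum for testing and the lines overlapped, so a difference in HMOX1 was not detectable at this depth.

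**Figure D2:**
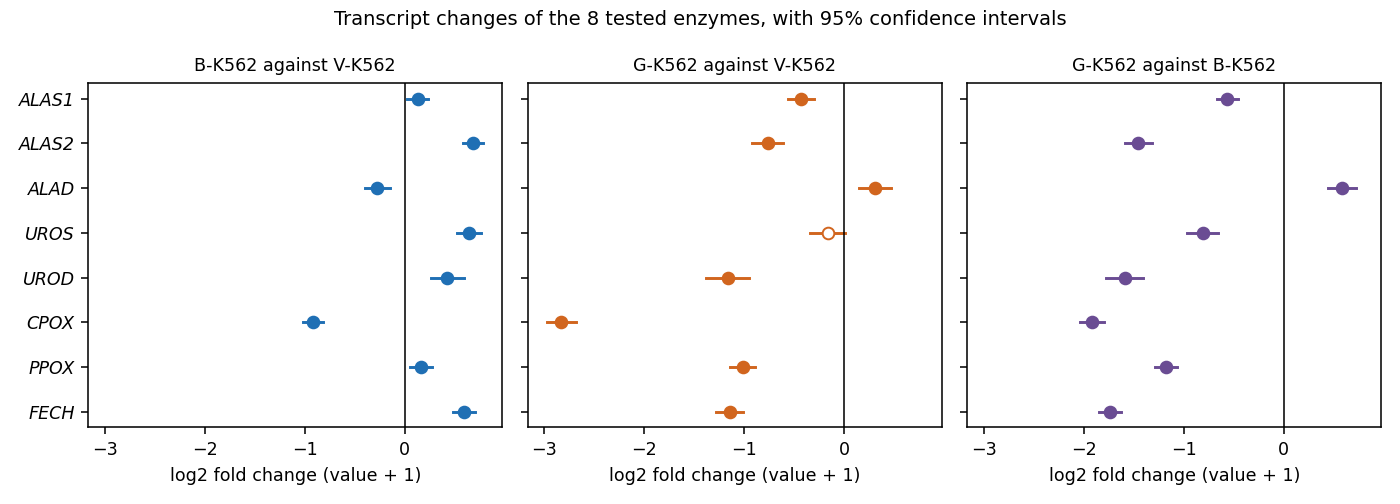
Log2 fold change (value + 1) of the 8 tested enzymes in each of the 3 comparisons, with 95% confidence intervals as lines. Filled points pass the adjusted p-value of 0.05 and the open point does not (UROS in G-K562 against V-K562, -0.16), and CPOX stands at -2.83 in that comparison.

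Per kb, the order of the levels differed between the lines at its middle and not at its ends. UROD was the most abundant of the 9 transcripts in every line, with 8465 ± 1172 per kb in V-K562, 11316 ± 224.7 in B-K562 and 3770 ± 384.9 in G-K562 (SD, n = 3 each). ALAS2 was next in every line and HMOX1 last. CPOX was the third in V-K562 (936.5 ± 31.0), where all neighbours in the order were separated by their libraries. It was the seventh in B-K562 (496.9 ± 13.6) and the eighth, just above HMOX1, in G-K562 cells (131.6 ± 9.07). FECH went from the sixth place in V-K562 (531.3 ± 30.0) to the third in B-K562 (800.2 ± 18.7) and the seventh in G-K562 (240.01 ± 7.38). In B-K562 cells ALAS1 (678.7 ± 9.70) and PPOX (646.5 ± 32.2) overlapped between libraries. In G-K562 cells the same was true of ALAD (344.5 ± 23.0) with UROS (316.6 ± 32.6) and of UROS with PPOX (285.6 ± 1.49), all as mean ± SD with n = 3.

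ATAC-seq marks open chromatin by the cuts of a transposase. The authors brought all libraries to an equal number of tags and ran MACS2 on each. The value of a region is the highest summit pileup, the number of tags at the top of a library's peak. Printed pileups are as deposited, while fold changes come from pileups scaled by a trimmed mean (log2 of scaled pileup + 1, limma-trend), which lowers G-K562 relative to V-K562 libraries. A library without a peak entered the fit at 17 tags, the 5th percentile, so a fold change that involves one is an artificial value and sets no bound.

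Of the 24 regions, 7 lay at a gene's start, 11 in an intron, 3 upstream and 3 downstream, and 15 had a peak in all 9 libraries. ALAD, UROS, UROD, CPOX, PPOX, FECH and ALAS1 each had a region at the start of their GENCODE canonical transcript. ALAS2 and HMOX1 had none there in any library. The ALAS2 transcript was thus abundant in cells with no called peak at its start, while its intron 8 held a region with a peak in all 9 libraries.

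In B-K562 cells 4 of the 20 regions tested were more accessible than in V-K562 cells and none was less accessible, where 8.58% of all 52204 regions tested rose and 16.6% fell. A single region, upstream of FECH, rose at least 2-fold, against 1.53% of all regions, and none fell 2-fold, against 6.15%. The 4 that rose included the start of CPOX, intron 1 of UROS and that upstream region, and without B-K562 replicate 3 the number was 2. The region upstream of FECH had peaks only in the B-K562 libraries. It could be tested only through the line in which it is high, here and in the direct comparison. In G-K562 cells 7 of the 18 regions tested were less accessible and 2 were more accessible, against 26.0% and 15.9% of all 54213 regions. All 7 that fell did so at least 2-fold, which 13.1% of all regions did, and none rose 2-fold, against 2.87%. The 7 were every intronic region that was tested in this comparison, among them those of ALAS2 intron 8, UROS, UROD, CPOX (2 regions) and FECH, and the 2 that rose were the starts of ALAD and PPOX. No region at the start of an enzyme's canonical transcript fell against V-K562 cells, but the UROS and UROD intronic regions that fell each hold another annotated start. Over all regions away from a coding start 16.2% fell 2-fold in G-K562 cells (median log2 fold change -0.24), and over regions at a coding start 1.9% did (median 0.32). These shares place a region at a start if it holds the start of any coding transcript. By that measure the intron 1 regions of UROS and UROD, the UROD upstream and the PPOX downstream region lie at a start. The shares and the enzyme classes are thus defined differently. The direct comparison found 9 of 21 regions lower in G-K562 than B-K562 cells, 7 of them at least 2-fold, and none higher. These were 6 of the intronic regions, the region upstream of FECH, and with less than a 2-fold change the starts of CPOX (log2 -0.61, SE 0.13, adjusted p = 0.00558, limma-trend) and UROD (log2 -0.37, SE 0.11, adjusted p = 0.0360). The call at the UROD start is lost without scaling (-0.15, adjusted p = 0.374, limma-trend), with scaling by GC content (-0.32, adjusted p = 0.0616) and without replicate 1 or 2 of either line (adjusted p from 0.0798 to 0.134). The backgrounds of the direct comparison over 60181 regions were 15.6% lower and 12.3% higher, and 8.60% and 4.28% with a 2-fold change.

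The scaling bears on the regions that rose. With the equal number of tags as the only normalization, 7 regions fell and 4 rose in G-K562 against V-K562 cells. Over all regions 18.2% fell and 31.1% rose in that comparison. Against B-K562 cells 8 fell and 3 rose, beside 13.3% and 22.7% of all regions. Of those changes against V-K562, 4 falls and 1 rise were then at least 2-fold. Scaling within 20 bins of GC content was added after the data were seen because fold changes rose with GC content. In G-K562 against V-K562 cells it left 7 lower, 5 of them at least 2-fold, and none higher. Over all regions 20.5% were then lower and 13.2% higher. With the mean in place of the summit pileup 7 were lower, 5 at least 2-fold, and 1 was higher. Beside these, 22.1% of all regions were lower and 13.3% higher. The 7 regions that fell had a GC content of 40.3% to 58.1%, and the start regions one of 53.3% to 75.8%.

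**Figure D3:**
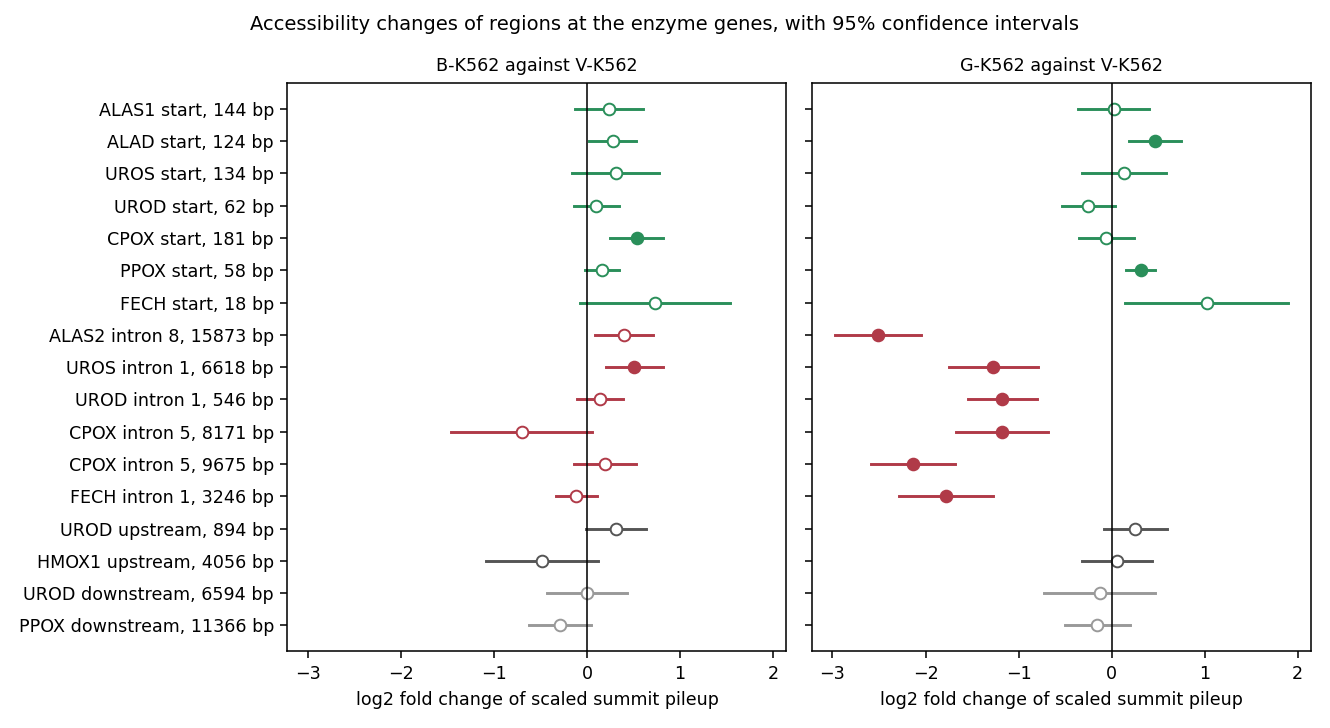
Log2 fold change of the scaled summit pileup, with 95% confidence intervals, for 17 of the 18 regions tested in G-K562 against V-K562 (right) and for the same regions in B-K562 against V-K562 (left), each named by gene, class and distance of its summit from the transcript start in bp (green start, red intron, grey upstream or downstream). Filled points pass the adjusted p-value of 0.05, and on the right the 6 intronic regions shown lie between -2.51 and -1.17 while the 7 start regions lie between -0.25 and 1.02.

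The region in intron 8 of ALAS2 (chrX:55014795-55015461) showed the largest change. Its summit pileup was 88, 120 and 105 tags in V-K562, 134, 159 and 164 in B-K562 and 28, 20 and 19 in G-K562 libraries. The G-K562 libraries were all far below the others. The scaled value was 5.69-fold lower in G-K562 than V-K562 cells (log2 -2.51, SE 0.20, adjusted p = 2.33e-04, limma-trend) and 7.54-fold lower than in B-K562 cells (log2 -2.91, SE 0.17, adjusted p = 4.18e-06). The rise in B-K562 cells, 0.40 (95% confidence interval 0.08 to 0.71, adjusted p = 0.0667, limma-trend), was not called. It was called without scaling (0.55, adjusted p = 0.0238, limma-trend) and with the GC scaling (0.50, adjusted p = 0.0415). It was also called with a replicate block (adjusted p = 0.0310) and without B-K562 replicate 1 (adjusted p = 0.0424). The same held among only regions with a peak in every library (adjusted p = 0.0250), and under no other alternative. At ALAS2 the transcript and the intron 8 region thus had the same order of lines, with B-K562 highest.

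At UROS the region in intron 1 (chr10:125816371-125816886), which also holds another annotated start of UROS, was at 62, 55 and 57 tags in V-K562, 100, 82 and 95 in B-K562 and 24, 36 and 31 in G-K562 libraries. The lines did not overlap. It rose 1.42-fold in B-K562 cells (log2 0.51, SE 0.13, adjusted p = 0.0271, limma-trend), a call that is lost without B-K562 replicate 1 or 3 or V-K562 replicate 2 or 3 (adjusted p from 0.0723 to 0.0843). It fell 2.41-fold in G-K562 cells (log2 -1.27, SE 0.21, adjusted p = 0.00244), and by 0.83 with the GC scaling (adjusted p = 0.0275), although the UROS transcript was not called changed there. The start region of UROS, shared with BCCIP, was at 37, 29 and 31 tags in V-K562, 48, 47 and 39 in B-K562 and 52, 43 and 41 in G-K562 libraries, with log2 fold changes of 0.31 and 0.13 that did not pass.

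UROD had 4 regions with peaks in all 9 libraries within a few kb. The one in intron 1 (chr1:45012583-45013064), 546 bp from the start and holding another annotated start of UROD, was at 183, 233 and 232 tags in V-K562, 247, 277 and 266 in B-K562 and 150, 113 and 104 in G-K562 libraries. It fell 2.25-fold in G-K562 cells (log2 -1.17, SE 0.16, adjusted p = 0.00116, limma-trend). The neighbouring region at the start, at 135, 146 and 120 tags in V-K562, 162, 171 and 145 in B-K562 and 144, 123 and 164 in G-K562 libraries, overlapped between V-K562 and G-K562 cells (log2 -0.25, adjusted p = 0.136). The region 894 bp upstream, at the start of HECTD3, was also not called in any comparison, although without V-K562 replicate 2 it was higher in B-K562 (0.46, adjusted p = 0.0341, limma-trend) and in G-K562 cells (0.41, adjusted p = 0.0290).

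CPOX, the transcript that fell most, had regions at its start and in its intron 5. The start region (chr3:98593455-98594072) was at 102, 124 and 128 tags in V-K562, 172, 186 and 213 in B-K562 and 150, 123 and 162 in G-K562 libraries. It rose 1.45-fold in B-K562 cells (log2 0.53, SE 0.12, adjusted p = 0.0168, limma-trend), in which the transcript fell, and the call is lost with the GC scaling (0.39, adjusted p = 0.0528) and with the mean in place of the summit pileup (0.46, adjusted p = 0.0575). In G-K562 cells it did not differ beyond the spread (log2 -0.06, 95% confidence interval -0.35 to 0.24, adjusted p = 0.746). The intronic region 9675 bp from the start (chr3:98583680-98584272) was at 68, 81 and 82 tags in V-K562 and 86, 114 and 95 in B-K562 libraries. In G-K562 cells a peak was called in 2 libraries, at 17 and 27 tags, and the fitted log2 fold change was -2.14 (SE 0.19, adjusted p = 3.22e-04) with the library without a peak at 17. The second intronic region, 8171 bp from the start, was at 50, 45 and 46 tags in V-K562 and 30, 19 and 30 in G-K562 libraries (log2 -1.18, SE 0.21, adjusted p = 0.00386, limma-trend). It had peaks of 40 and 43 tags in 2 B-K562 libraries and none in the third.

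At FECH the intron 1 region (chr18:57583221-57583736) was at 110, 118 and 114 tags in V-K562, 112, 117 and 122 in B-K562 and 53, 45 and 30 in G-K562 libraries. The V-K562 and B-K562 libraries overlapped, and G-K562 cells were 3.43-fold below V-K562 (log2 -1.78, SE 0.22, adjusted p = 7.68e-04, limma-trend). The start region had peaks of 37 and 42 tags in 2 V-K562 libraries, 46, 63 and 56 in B-K562 and 60, 80 and 88 in G-K562 libraries. Its fitted log2 fold change in G-K562 cells, 1.02 (adjusted p = 0.0632), includes V-K562 replicate 1 at 17 tags without a peak, and it is called without scaling (1.30, adjusted p = 0.0151, limma-trend) and without V-K562 replicate 3 (adjusted p = 0.0441) or G-K562 replicate 1 (adjusted p = 0.0493). A region 1746 bp upstream of FECH (chr18:57588277-57588613) had peaks of 52, 42 and 69 tags in the B-K562 libraries and no peak in the other 6 libraries. It could enter the test only through the line in which it is high, and the fitted log2 fold change of 1.52 against V-K562 cells (SE 0.23, adjusted p = 0.00381, limma-trend) sets those cells at 17 tags. With any of the B-K562 libraries left out, it had too few peaks to be tested.

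Of the other starts, those of ALAD and PPOX were more open in G-K562 than V-K562 cells. The ALAD start was at 190, 187 and 233 tags in V-K562, 270, 296 and 253 in B-K562 and 317, 383 and 374 in G-K562 libraries. It rose 1.38-fold in G-K562 cells (log2 0.47, SE 0.12, adjusted p = 0.0172, limma-trend), a call that is lost with the GC scaling (0.13, adjusted p = 0.369) and without V-K562 replicate 2 (0.40, adjusted p = 0.0531). The PPOX start was at 366, 338 and 333 tags in V-K562, 450, 438 and 403 in B-K562 and 548, 521 and 576 in G-K562 libraries. It rose 1.24-fold in G-K562 cells (log2 0.31, SE 0.07, adjusted p = 0.00809), in which the transcript fell, and the call is lost with the GC scaling (0.19, adjusted p = 0.0790, limma-trend) and with the mean pileup (0.30, adjusted p = 0.0528). The ALAS1 start, at 72, 55 and 75 tags in V-K562, 96, 88 and 80 in B-K562 and 79, 91 and 90 in G-K562 libraries, changed by 0.02 on the log2 scale in G-K562 cells (95% confidence interval -0.36 to 0.40, adjusted p = 0.924), and of -0.31 with the GC scaling (adjusted p = 0.178).

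**Figure D4:**
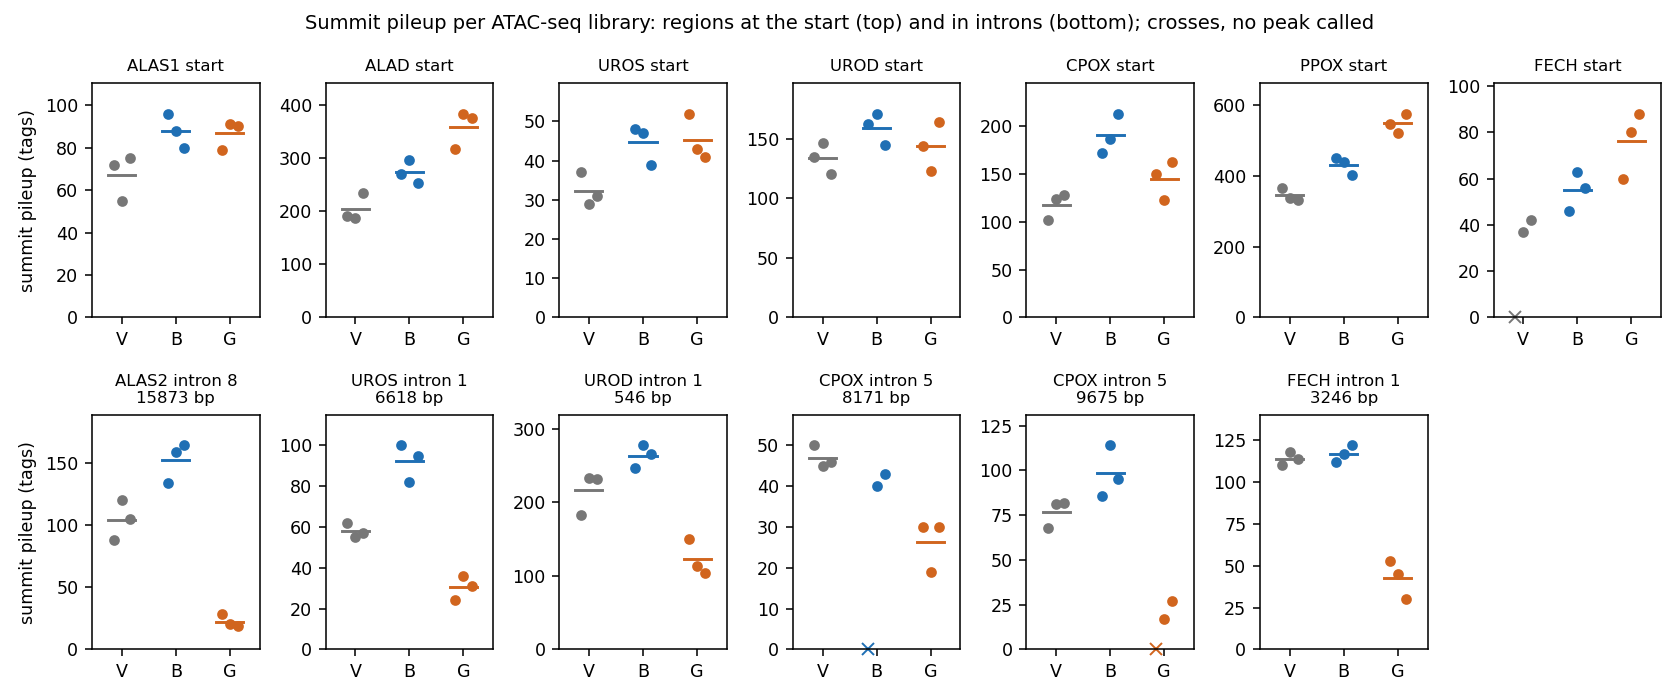
Summit pileup in tags, as deposited, of each ATAC-seq library for the 7 start regions (top) and 6 intronic regions tested in G-K562 against V-K562 (bottom), with 3 points per line (V, B and G), bars at the mean where all 3 libraries had a peak, and crosses where no peak was called. In the intronic regions every G-K562 library is under every V-K562 library with a peak, for example 19 to 28 against 88 to 120 tags in intron 8 of ALAS2.

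The GATA letters stood in 5 of the 7 regions that fell at least 2-fold in G-K562 cells and in 3 of the other 11 regions tested in that comparison. Among all 60181 regions of the 9-library fit 32.54% hold them, with 7.9% at the start of any coding transcript and 38.69% away from one. The regions of UROD intron 1 and of CPOX intron 5 at 8171 bp, which also fell, hold none. The other letters searched were rarer here. TGAGTCA stood in 1 of the 7 regions that fell, that of CPOX intron 5 at 8171 bp. It stood in 1 of the other 11, against 16.47% of all regions. GCGTGGG, which WT1 and EGR factors recognize, stood in 1 of the 7 regions that fell and 2 of the other 11, against 5.04% of all regions. GCATGCG of NRF1 stood in 0 and 2 of them (2.54% of all regions), CACACCC of KLF factors in 0 and 1 (9.09%) and the E-box CACGTG in none of the 18 (6.72%). Of the start regions only that of CPOX held the GATA letters, 1 of 7. A match is a description of the letters and does not show that a factor was bound.

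HMOX1 had a single region within 5 kb, 4056 bp upstream of its start (chr22:35376720-35377316), which is shown because it holds TGAGTCA, in capitals, as do 16.47% of all 60181 regions. The stretch is chr22:35377143-35377179, plus strand.
HMOX1 upstream: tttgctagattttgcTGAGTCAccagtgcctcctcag
This region was at 51, 67 and 47 tags in V-K562, 60, 44 and 30 in B-K562 and 73, 67 and 77 in G-K562 libraries. Neither comparison with V-K562 was called, with log2 fold changes of -0.48 in B-K562 (adjusted p = 0.211, limma-trend) and 0.06 in G-K562 cells (adjusted p = 0.799). G-K562 was 0.52 above B-K562 on the log2 scale in the direct comparison, also not called (adjusted p = 0.131, limma-trend). That difference was called without scaling (0.74, adjusted p = 0.0388, limma-trend) and without B-K562 replicate 1 (0.74, adjusted p = 0.0354). It was also called among only regions with a peak in every library (adjusted p = 0.0477). An open region upstream of HMOX1 thus existed in every library while its transcript stayed at 6 or less.

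Genes around the pathway were described by lists. The carriers and cofactor genes of heme synthesis, 20 genes for transport of glycine, iron, porphyrins and heme and for iron-sulfur clusters, had 11 members higher and 4 lower in B-K562 cells (19 tested, median log2 fold change 0.23), beside 38.6% higher and 37.2% lower over all genes. In G-K562 cells 11 were lower and 4 higher (20 tested, median -0.21), beside 33.3% lower and 33.5% higher. ABCB10, a mitochondrial transporter that binds SLC25A37 and FECH, went with the enzymes, with log2 fold changes of 0.85 (SE 0.06) in B-K562 and -0.86 (SE 0.07) in G-K562 cells and a difference between them of -1.70 (SE 0.06, adjusted p = 1.18e-11, limma-trend). The exporter ABCG2 went from 7, 16 and 14 in V-K562 and 27, 21 and 16 in B-K562 to 534, 535 and 540 in G-K562 libraries (log2 5.40, SE 0.24, adjusted p = 6.88e-09 against V-K562). FLVCR2, also a heme transporter by family, was at 0, 4 and 1 in V-K562, 3, 0 and 0 in B-K562 and 17, 14 and 14 in G-K562 libraries. FLVCR2 is among the 4 counted as higher in G-K562 cells. It reached the minimum for testing in the G-K562 libraries alone, so it could be tested only through the line in which it is high. In B-K562 against V-K562 cells it was not tested.

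Among the 9 erythroid regulators 7 were higher and 2 lower in B-K562 cells (median 0.40), and 7 were lower and none higher in G-K562 cells (median -0.71), beside the same shares over all genes. All 9 were lower in G-K562 when compared with B-K562 cells (median -1.02), beside 40.5% of all genes. KLF1, an erythroid zinc finger factor, had log2 fold changes of 0.88 (SE 0.05) in B-K562 and -1.48 (SE 0.09) in G-K562 cells. LMO2, a partner of TAL1, was at 0.40 (SE 0.05) and -1.26 (SE 0.08), and TAL1 at 0.25 (SE 0.06) and -0.79 (SE 0.07). ZFPM1, the GATA1 cofactor FOG1, was higher by 1.33 (SE 0.05) in B-K562 cells and did not differ beyond the spread in G-K562 cells (-0.10, adjusted p = 0.361, limma-trend).

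The heme oxygenase system and its stress regulators were described in the same way. Of the 4 partners of breakdown, 1 was higher and 2 were lower in B-K562 cells, and 1 was higher and 1 lower in G-K562 cells. No partner changed 2-fold in any comparison. Of 16 genes of the NRF2 and BACH1 axis, which control HMOX1 or share its regulators, 6 were higher and 7 lower in B-K562 cells (median -0.02), and 7 were higher and 4 lower in G-K562 cells (median 0.12). Over all genes 38.6% were higher and 37.2% lower in B-K562 cells, and 33.5% and 33.3% in G-K562 cells, so nothing particular to either list is read from these counts. NQO1, a quinone reductase, rose by 0.64 (SE 0.05) in B-K562 and by 1.51 (SE 0.07) in G-K562 cells on the log2 scale. The cystine carrier SLC7A11 fell by 1.78 (SE 0.06) in B-K562 cells and was at -0.12 in G-K562 cells (adjusted p = 0.113, limma-trend). NFE2L2, which encodes NRF2, and the glutathione enzyme GCLC were at least 2-fold higher in G-K562 than B-K562 cells, at log2 differences of 1.03 (SE 0.05) and 1.02 (SE 0.05).

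**Figure D5:**
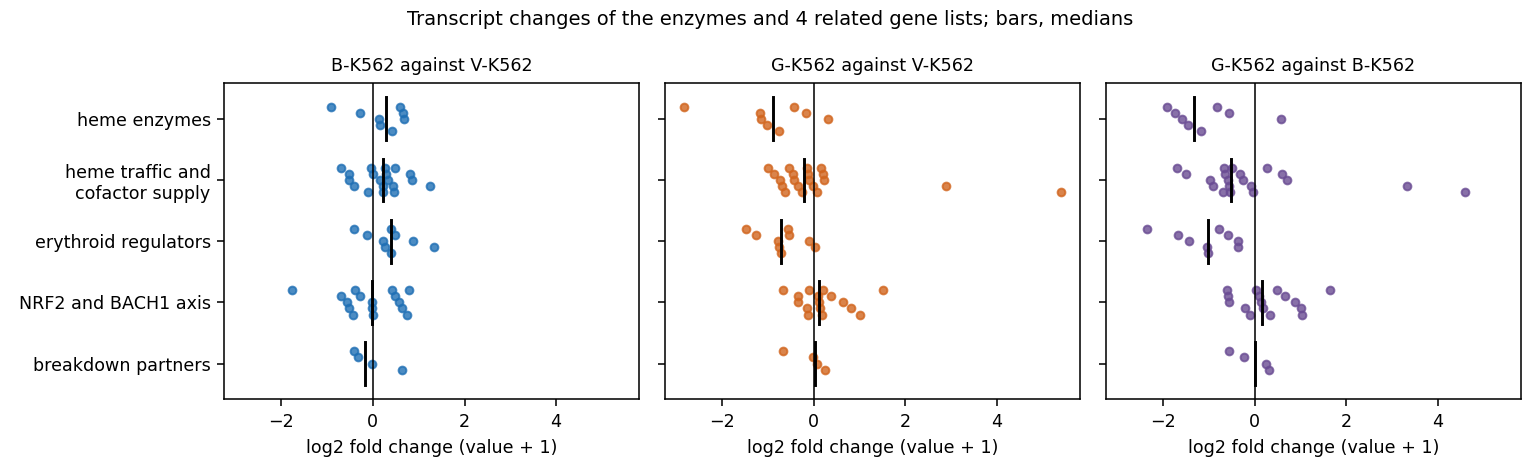
Log2 fold change (value + 1) of each tested gene, 1 point per gene, for the heme enzymes and the 4 related lists in the 3 comparisons, with black bars at the medians. The medians of the enzymes were 0.29, -0.89 and -1.31 from left to right and those of the erythroid regulators 0.40, -0.71 and -1.02, while those of the NRF2 and BACH1 axis lay between -0.02 and 0.15.

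CPOX and FECH had the widest ranges of group means (2.83 and 1.74 on the log2 scale), and the genes most like them over the 9 libraries were sought among 11376 genes whose values averaged 100 or more. The libraries fall into 3 lines, so such a likeness mostly restates the order of 3 means. The genes closest to CPOX were HEPACAM2 (Pearson's r = 0.9993), ITGA4 (r = 0.9989) and PFKFB4 (r = 0.9987). HEPACAM2 had means of 838.3 ± 39.8 in V-K562, 375.6 ± 18.3 in B-K562 and 55.7 ± 2.52 in G-K562 cells (SD, n = 3 each). Those closest to FECH were CA1 (r = 0.9988), VDAC3 (r = 0.9980) and BLMH (r = 0.9979). CA1, the erythrocyte carbonic anhydrase, had means of 512 ± 69.1, 3397 ± 58.5 and 18.7 ± 4.51 in the same order (SD, n = 3 each).

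Over the series, BASP1 ranged from 5 to 7 (V-K562), 6294 to 6965 (B-K562) and 8124 to 12538 (G-K562). All 8 K562 markers were measured, with a summed value of 177676 to 183849 in B-K562 libraries, 106035 to 119974 in V-K562 and 37960 to 45572 in G-K562, an order of lines shared with most of the enzymes. Of 14 markers of other lineages 4 (CD2, MS4A1, CD79A and CSF1R) were under 10 in every library. The sum of the 14, most of it from KRT8, was highest in G-K562 (27613 to 27900), then in V-K562 (21284 to 22646) and lowest in B-K562 libraries (14155 to 14579). The single markers did not follow this sum. Of the 10 tested, 5 were lower and 3 higher in G-K562 than V-K562 cells (median log2 fold change -0.28). Over all genes 33.3% were lower and 33.5% higher. In B-K562 cells 6 were lower and 1 higher (median -0.70), beside 37.2% and 38.6% of all genes. The part that any difference in cell state or composition between the lines had in the enzyme values was not tested. In bulk libraries fewer cells with a transcript and less transcript per cell cannot be told apart.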

How the data were processed

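Each of the 3 lines had 3 biological replicates in RNA-seq and 3 in ATAC-seq. RNA-seq reads were mapped by the authors to GRCh38 with STAR, and unique reads without duplicates were assigned to RefSeq genes by Subread. The RNA-seq signal values that the authors deposited are the resulting counts over DESeq2 size factors, rounded to whole numbers, in 1 table per BASP1 line with V-K562, each normalized separately. Their totals of 32074895 to 33138341 per library do not show depth. The other deposited column used is the length of the merged exons given by the authors. The tables also hold the authors' own fold changes and p-values, which were not used. ATAC-seq reads were mapped with BWA-MEM, sampled to equal tag numbers and given peaks per library with MACS2, and the deposited signal values are the pileups at summits and over intervals, with 47111 to 55570 peaks per library.

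The enzymes, gene lists and regions were chosen with earlier results of these data known. All 9 enzymes are named. Of each list only members that changed at least 2-fold in some comparison may be named, and of regions those at a start or changed at least 2-fold. The regions upstream of UROD and HMOX1, those downstream of UROD and PPOX and the lineage markers CD2, MS4A1, CD79A, CSF1R and KRT8 fall outside this rule and were named after their values were seen. An intronic region and a list gene, both kept in the counts, are not reported here. For the 2 enzymes with the widest range of group means, the 3 genes with the highest Pearson correlation are named. Values were tested as log2(value + 1) by limma-trend (limma 3.58.1, R 4.3.3), and p-values were adjusted by Benjamini-Hochberg across every gene or region tested. The direct comparison of the BASP1 lines used all 9 libraries, after multiplying B-K562 values by 1.017, the mean ratio of the shared V-K562 columns. Overlapping ATAC-seq intervals of all libraries were merged, and regions with a peak in at least 3 libraries were tested after trimmed-mean scaling (30% of log ratios and 5% of means trimmed at each end). Regions were placed with GENCODE v44 on GRCh38, and sequences were read from GRCh38 and from the RefSeq promoter table (GRCh38.p14), in which 7 of the enzymes were matched by symbol. Besides the GATA letters and TGAGTCA, the letters GCGTGGG of WT1 and EGR factors, GCATGCG of NRF1, CACGTG of E-box factors and CACACCC of KLF factors were searched on both strands. The scripts were tested on simulated data with known changes, and Python 3.11.15, pandas 2.3.3, numpy 2.4.6 and matplotlib 3.10.9 were used. Alternatives were other pseudocounts, filters, scalings and floors, the mean in place of the summit pileup, a wider distance, a replicate block and leaving out each library.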

Additional observations from a re-analysis of the deposited data

Results flagged for a closer look

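In 6 of the 8 tested enzymes the B-K562 and G-K562 libraries moved to opposite sides of V-K562. In each case the difference between the BASP1 lines was itself called (limma-trend on 9 libraries, adjusted over all genes). Over all genes 38.6% rose and 37.2% fell in B-K562 cells, and 33.5% rose and 33.3% fell in G-K562 cells. The share of all genes called on opposite sides was not counted, so 6 of 8 is not read as unusual. G-K562 minus B-K562 on the log2 scale was -1.74 for FECH, -1.59 for UROD, -1.45 for ALAS2, -1.18 for PPOX, -0.56 for ALAS1 and 0.58 for ALAD. The sides for ALAS1 and PPOX rest on rises in B-K562 cells of 1.10-fold and 1.12-fold, which are not called under every alternative. With 3 libraries per group, no library could be tested for standing apart.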

How the results depend on the processing

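The numbers of changed enzymes and of changed list members stayed within 1.5 times under all alternatives run. Over all regions in B-K562 against V-K562 cells, 16.6% were lower and 8.58% higher, and 12.7% and 15.8% without scaling. Of the enzyme regions in that comparison, 4 were called, 7 without scaling and 2 to 4 with a library left out. Of these, 1 changed 2-fold, against 2 within 10 kb, 2 without scaling, 2 with scaling within 20 bins of GC content, 0 with a peak in every library and 0 to 1 with a library left out. Of 352 alternative values of single enzymes 344 kept their direction and side of the threshold, 7 lost a call (ALAS1 and PPOX in B-K562 cells), 1 gained one (UROS in G-K562 cells) and none changed sign. The direction turned only for regions that were not called. Without scaling the log2 fold change was 0.15 for the region downstream of UROD and 0.037 for FECH intron 1 in B-K562 against V-K562 cells, 0.10 for the UROD start, 0.22 downstream of UROD, 0.29 for the CPOX start and 0.19 downstream of PPOX in G-K562 against V-K562 cells, and 0.019 for the UROS start, 0.14 upstream and 0.067 downstream of UROD in G-K562 against B-K562 cells. With the GC scaling it was 0.057 for FECH intron 1 in B-K562 cells, and -0.31 for the ALAS1 and -0.196 for the UROS start in G-K562 cells. With a library left out it ran from -0.14 to 0.12 downstream of UROD in B-K562 against V-K562 cells. In G-K562 against V-K562 cells it ran from -0.12 to 0.11 at the ALAS1 start, -0.31 to 0.14 downstream of UROD, -0.15 to 0.057 at the CPOX start and -0.049 to 0.20 upstream of HMOX1, and from -0.34 to 0.11 downstream of UROD against B-K562. The cause was not tested.

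Whether the replicate numbers pair the libraries is not settled here. Deviations of same-numbered libraries from their group means correlated at -0.151 to 0.257 in RNA-seq and 0.007 to 0.122 in ATAC-seq. No correlations of different-numbered libraries were set beside these for reference. With a replicate block the numbers of changed enzymes were 8, 7 and 8 in the 3 comparisons and those of regions 5, 10 and 8. Over all regions 15.6% were then lower and 8.75% higher in B-K562 against V-K562 cells. The shares were 25.3% and 16.1% in G-K562 against V-K562 cells and 15.1% and 12.1% against B-K562. The block ended the call of the UROD start in G-K562 against B-K562 cells (adjusted p = 0.0614, limma-trend). It gave 1 to the FECH start in G-K562 against V-K562 cells (adjusted p = 0.0147). Intron 8 of ALAS2 also gained a call, in B-K562 against V-K562 cells (adjusted p = 0.0310).

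Depth per gene is not given by the deposited values, so HMOX1 cannot be called absent. Pileups are known only where a peak was called, which limits regions near 17 tags.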
